A study of Drosophila melanogaster with 4 samples.

Results

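The odorant-binding proteins of Drosophila were examined in early pupae with ubiquitous knockdown of the dopamine receptor Dop1R2. Members were probe sets whose single annotated gene name is lush or starts with Obp, or with the older family names Pbprp or Os. This gave 37 probe sets, each for a different gene, of 13966 on the array and of 10843 genes with a probe set of their own. Another 2 probe sets were left out because they carry several gene names, and 16 of the 53 family genes named in the RefSeq gene table have no probe set of their own.

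The study hybridized 4 Affymetrix Drosophila genome arrays with RNA from pools of 10 to 20 whole pale pupae raised at 29 °C. The 2 Dop1R2 RNAi arrays hold pupae of the genotype UAS-dsDop1R2/+;Act5C-Gal4/+, in which the actin driver expresses a hairpin against Dop1R2 in all tissues. The 2 control arrays hold w1118;Act5C-Gal4/+ pupae, which carry the driver without the hairpin, although a figure legend of the study gives the controls as siblings with the hairpin and a TM6B balancer in place of the driver. The hairpin lies on the second chromosome, and which of the lab-made insertion lines was hybridized is not given in the sources used here. Neither the level of Dop1R2 nor the depth of its knockdown was checked on the arrays, because Dop1R2 has no probe set to itself. By RT-PCR, outside the arrays, the study reported a significant decrease of the endogenous Dop1R2 transcript in knockdown flies.

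Odorant-binding proteins are small secreted carriers. In the antenna and taste organs they are released by support cells into the fluid around the sensory neurons, where they bind odorants and pheromones, and lush is needed for the response to a male pheromone. Many members are also made outside the sense organs, in fat body, gut, glia or the reproductive tract. The family is divided by its conserved cysteines, which form disulphide bridges, into a classical class, a Minus-C class that lost some of them and a Plus-C class with additional ones. Os-C is an antennal protein named like the others that is not a classical odorant-binding protein.

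Each probe set has 1 MAS5 signal per array, an intensity on a linear scale. The arrays had median signals of 43.4 to 45.0. No detection calls were used here, so a signal at or above the 40th percentile of its array, which lay between 29.4 and 31.0, was taken as above the detection level, and a probe set was tested when at least 2 of 4 arrays reached it. Signals of different probe sets do not rank their transcripts, since each probe set responds in its own way.

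Most of the family was dim in these whole pupae. Of 37 members, 25 were under the detection level on all 4 arrays (67.6%), against 31.6% of all probe sets, and 18 were under the 20th percentile on all 4 arrays (48.6% against 12.1%). Both control arrays reached the detection level for 8 members and both Dop1R2 RNAi arrays for 9. All 4 arrays reached it for 7 members, which is 18.9% of the family and compares with 51.6% of all probe sets. With the level set at the 20th percentile this count was 11, and at the 60th it was 6. These 7 were Obp44a, Obp56a, Obp56d, Obp83ef, Obp99a, Obp99b and Obp99c. Obp18a and Obp99d reached it in the Dop1R2 RNAi pair alone, Obp73a in both controls and 1 Dop1R2 RNAi array, and Obp83cd in replicate 1 of each group. Members just outside the tested set were Obp19b, with 1 array at the level (31.0 in Dop1R2 RNAi replicate 2), and Os-C, whose highest signal was 29.5.

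**Figure D1:**
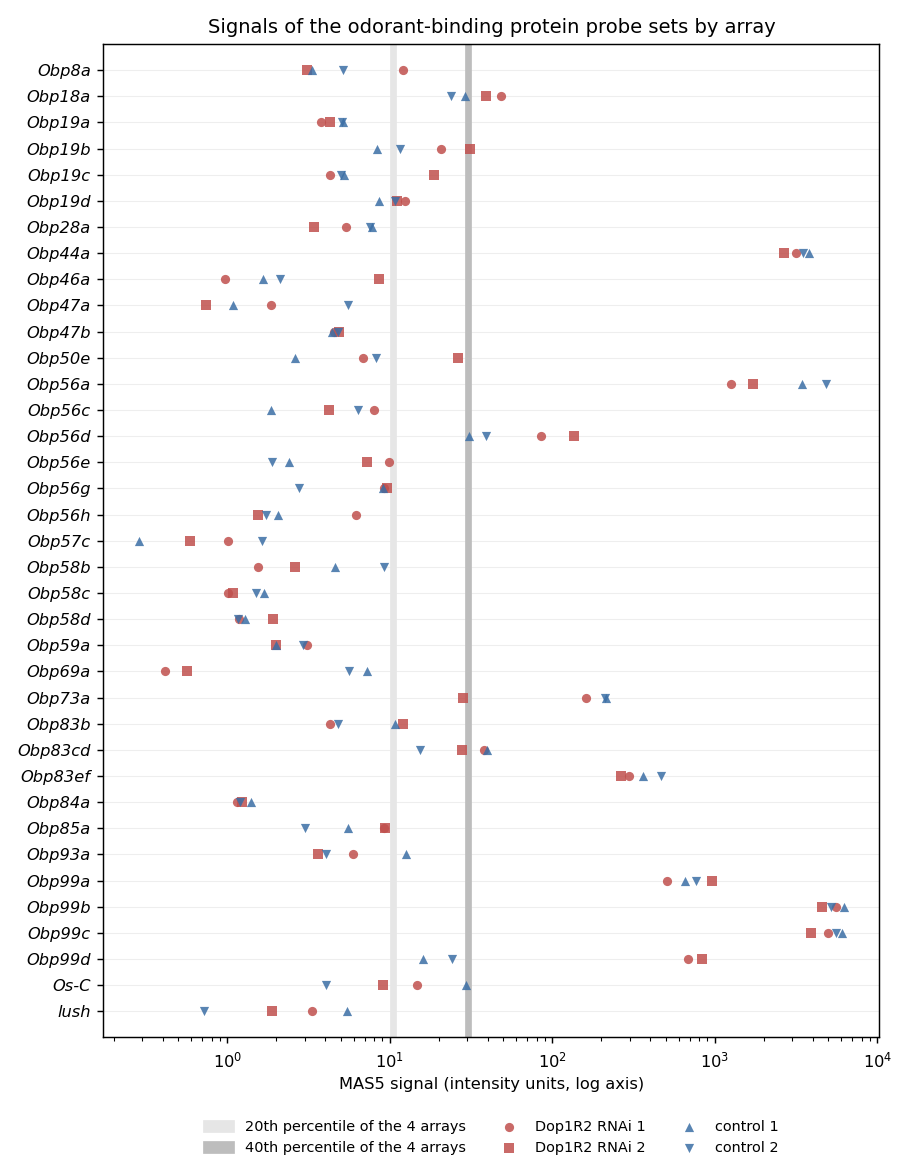
MAS5 signals (log axis) of the 37 members on the 2 Dop1R2 RNAi arrays (red) and 2 control arrays (blue), with grey bands at the 20th and 40th percentiles of the arrays. Most members lie left of the 40th percentile on all arrays, and the red and blue symbols of Obp99d lie far apart.

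The Minus-C class held 4 of the 7 members above the detection level on all arrays. Of its 6 members with a probe set (Obp8a, Obp44a and Obp99a to Obp99d), 5 reached the level on at least 2 arrays and Obp8a on none. The Plus-C class (Obp46a, Obp47b, Obp50e, Obp58b, Obp58c, Obp58d, Obp85a and Obp93a) had 0 of 8 members above the level on any array, with signals of 0.961 to 26.2. The antennal members first described as Pbprp or Os proteins, which are Obp19d, Obp28a, Obp69a, Obp83b, Obp84a and Os-C, and lush had 0 of 7 above it, with signals of 0.415 to 29.5. Both members that carry a pair of odorant-binding domains, Obp83cd and Obp83ef, were bright enough to be tested.

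**Figure D2:**
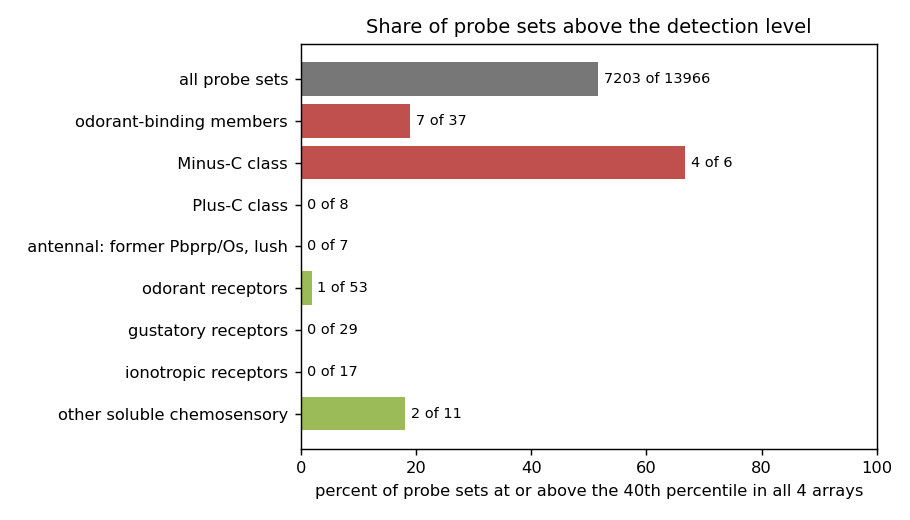
Share of probe sets, in percent, at or above the 40th percentile in all 4 arrays, for all probe sets (grey), the odorant-binding members and 3 of their subsets (red), and other chemosensory genes (green). Of the members 7 of 37 reached it, the 8 Plus-C members and the 7 with a former Pbprp or Os name or named lush fell short, and 1 of 53 odorant receptor probe sets reached it.

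The comparison of Dop1R2 RNAi with control pupae asked which transcripts differ in early pupae that were raised with the hairpin expressed. Of the 11 members bright enough to be tested, 1 rose (Obp99d) and 1 fell (Obp56a) at adjusted p under 0.05 from limma, where the Benjamini-Hochberg adjustment ran over all 8749 tested probe sets. Over the array 1.38% of tested probe sets rose and 0.103% fell. At unadjusted p under 0.05, 2 members were higher and 1 was lower, against 7.53% and 5.51% of tested probe sets. The median log2 fold change of the 11 was -0.18, against -0.04 over all tested probe sets, with 4 above 0 and 7 below. The groups did not overlap in 3 members that were higher and 5 that were lower in Dop1R2 RNAi, where 21.1% and 24.0% of all tested probe sets did so. RNA of whole pupae was measured, so fewer cells of a type and less RNA per cell cannot be told apart.

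**Figure D3:**
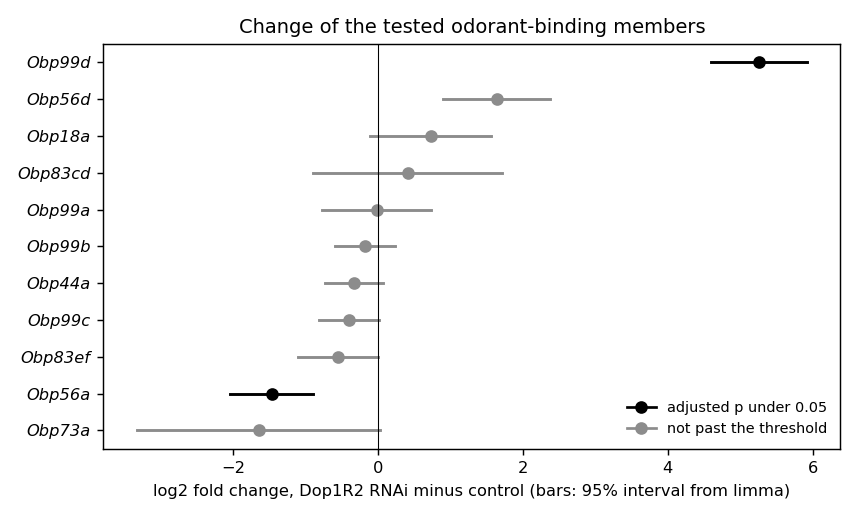
Log2 fold change of the 11 tested members, Dop1R2 RNAi minus control, with 95% intervals from limma. Black symbols passed adjusted p under 0.05: Obp99d at 5.26, with both controls under the detection level, and Obp56a at -1.47.

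Obp99d, a Minus-C member, was dim in control pupae and bright in Dop1R2 RNAi pupae. Dop1R2 RNAi replicates 1 and 2 gave signals of 682 and 835, and control replicates 1 and 2 gave 16.1 and 24.0. Both controls lay under the detection level and above the 20th percentile of their arrays. The mean rose from 20.0 ± 5.59 (SD, n = 2 arrays) to 759 ± 109 (SD, n = 2). With both controls raised to the detection level, limma put the rise at 24.9-fold (4.64 as log2, adjusted p = 4.06e-04). That is an estimate, with a standard error of 0.24 on the log2 scale, and not a lower bound. Raising the controls also replaced their measured spread, so this p is no separate support for the rise. The measured signals gave 5.26 on the log2 scale (limma, standard error 0.28, adjusted p = 5.56e-04), a value that rests on control signals not above the detection level. Obp99d entered the test through the Dop1R2 RNAi pair alone, and in the fit of all probe sets without a filter its adjusted p was 0.0024. Over the fits that left out 1 array its log2 fold change was 4.98 to 5.55.

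The other 3 members with the number 99, which also belong to the Minus-C class, did not pass. Obp99b, a fat body product with sex-biased levels in adults, had signals of 5549 and 4574 in the knockdown and 6238 and 5210.3 in controls. Its groups overlapped, and its log2 fold change was -0.18 (95% interval -0.59 to 0.23, adjusted p = 0.690 from limma). Obp99a had signals of 511 and 958 in the knockdown, on either side of the 656 and 769.9 in controls (log2 fold change -0.02, 95% interval -0.77 to 0.73). Obp99c had 5001 and 3883 against 6070 and 5597. Its Dop1R2 RNAi arrays both lay under both controls, with a log2 fold change of -0.40 (95% interval -0.82 to 0.01, adjusted p = 0.391). Without Dop1R2 RNAi replicate 1, which leaves 1 array in that group, the log2 fold change was -0.59.

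These 4 genes lie near each other on chromosome arm 3R in the RefSeq gene order, and Dop1R2 lies on the same arm. There are 3 protein-coding genes between Dop1R2 and Obp99a, 5 between Obp99a and Obp99c, and 1 each between Obp99c and Obp99d and between Obp99d and Obp99b. Dop1R2 and Obp99d have 11 genes between them, so Dop1R2 is not among the 10 on each side counted next. Of the 10 protein-coding genes on each side of Obp99d, 17 had a probe set, 11 were tested, and 0 rose and 0 fell by limma (smallest adjusted p = 0.391, that of Obp99c). Their log2 fold changes ran from -1.05 to 0.43. At unadjusted p under 0.05, 0 of the 11 were higher and 0 lower.

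**Figure D4:**
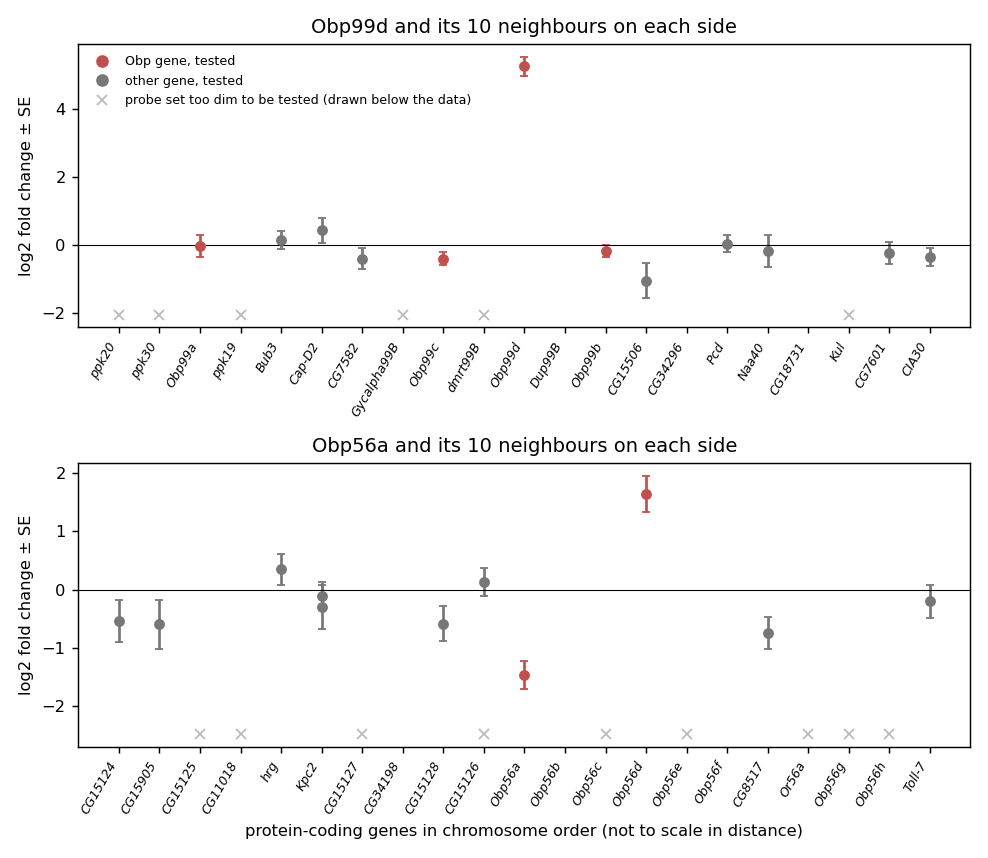
Log2 fold change with its standard error for the protein-coding genes around Obp99d (top) and Obp56a (bottom), in chromosome order, with members in red, probe sets too dim to be tested as grey crosses, and genes without a probe set left blank. Obp99d stands at 5.26 among neighbours between -1.05 and 0.43, and Obp56a and Obp56d lie on opposite sides of 0.

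Within the Obp56 genes, Obp56a was lower and Obp56d higher in Dop1R2 RNAi pupae. Obp56a had signals of 1250.1 and 1712 in the knockdown and 3422 and 4818 in controls, with no overlap. Its mean fell from 4120.3 ± 987 (SD, n = 2 arrays) to 1481 ± 326 (SD, n = 2), which is -1.47 on the log2 scale (limma, standard error 0.24, adjusted p = 0.0402). The adjusted p was above 0.05 when either control array was left out (0.198 for replicate 1, 0.206 for replicate 2), with no filter on dim probe sets (0.108), after quantile normalization (0.0522) or in the fit without a trend (0.125).

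Obp56d, which is made in the antenna and in taste organs of the adult, had signals of 85.7 and 135 in the knockdown and 30.8 and 38.9 in controls. The groups did not overlap, and the log2 fold change of 1.64 (standard error 0.31, 95% interval 0.90 to 2.37) did not pass (adjusted p = 0.0678 from limma). Without Dop1R2 RNAi replicate 1, which leaves 1 array in that group, the log2 fold change was 1.97. It shrank to 1.07 once 32 was added to all signals (adjusted p = 0.0766). The log2 ratio of Obp56a to Obp56d within an array was 3.87 and 3.66 in the knockdown and 6.79 and 6.95 in controls. It does not change when all signals of an array are multiplied by 1 factor, but can change under other normalizations. This pair was chosen after its values were seen, so the ratio is a description without a test.

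Obp56a and Obp56d have 2 protein-coding genes between them, both of the family, and Obp56e follows Obp56d directly. The other Obp56 members with a probe set were dim. Obp56c, Obp56e, Obp56g and Obp56h were under the 20th percentile on all 4 arrays, with Obp56e at 9.85 and 7.25 in the knockdown and 2.39 and 1.88 in controls, so no fold is given. Among the 10 protein-coding genes on each side of Obp56a, 9 genes were tested, and 0 rose and 0 fell by limma, with 1 higher (Obp56d) and 1 lower at unadjusted p under 0.05. Apart from Obp56d, their log2 fold changes ran from -0.74 to 0.35.

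Obp73a differed between the Dop1R2 RNAi replicates by more than between the groups, while the control replicates were alike. Dop1R2 RNAi replicates 1 and 2 gave signals of 161 and 28.2, and control replicates 1 and 2 gave 213 and 211. The groups did not overlap, yet the Dop1R2 RNAi arrays differed 5.72-fold from each other, and only 32 of the 8749 tested probe sets (0.366%) differed as much between these arrays. The log2 fold change was -1.65 (standard error 0.71, 95% interval -3.33 to 0.03, adjusted p = 0.389 from limma). Leaving out Dop1R2 RNAi replicate 2 shrank the log2 fold change to -0.39, and leaving out replicate 1 moved it to -2.91. These fits hold 1 knockdown array each and cannot measure the spread of that group, so no p is given for them. The size of the fall therefore rests on 1 array.

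Among the remaining tested members none passed. Obp44a, which cells of the nervous system secrete, had signals of 3143 and 2666 in the knockdown and 3777 and 3510.5 in controls (log2 fold change -0.33, 95% interval -0.73 to 0.07, adjusted p = 0.454 from limma). Obp83ef had 296 and 265 against 362 and 464 (-0.55, 95% interval -1.10 to 0.00, adjusted p = 0.386). In both genes each Dop1R2 RNAi array lay under each control. Obp18a, which reached the detection level in the Dop1R2 RNAi pair alone, had 48.1 and 39.3 against 29.0 and 23.8 (0.73, 95% interval -0.11 to 1.56, adjusted p = 0.433). Obp83cd had overlapping groups, with 38.2 and 27.9 against 39.5 and 15.3.

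The 26 members that were not tested had signals of 0.285 to 31.0. In a fit without the filter 4 of them had an unadjusted p under 0.05 and 0 an adjusted one. In that fit 10.2% of all probe sets, and 5.83% of the 5217 that the filter leaves out, had an unadjusted p under 0.05. The antennal member Obp69a had signals of 0.415 and 0.566 in the knockdown and 7.20 and 5.61 in controls, all under the 20th percentile, so no fold is given. Obp19b, of the gustatory sensilla, had 20.7 and 31.0 in the knockdown and 8.30 and 11.5 in controls, with no overlap. Since 3 of its arrays were under the detection level, no fold is given for it either. The pheromone carrier lush had 3.32, 1.88, 5.41 and 0.722 on the 4 arrays, in the order Dop1R2 RNAi 1 and 2 and control 1 and 2. Obp59a, which serves humidity sensing in the antenna, had 3.07, 1.99, 1.99 and 2.92 in that order. Neither gene separated the groups.

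Other genes of chemoreception were mostly dim too. Of 169 genes in a list of receptors, membrane proteins, other soluble carriers, degrading enzymes and regulators of chemosensory neurons, 113 had a probe set. Of their 119 probe sets 100 were under the detection level on all arrays. For odorant receptors this held for 44 of 53 probe sets, for gustatory receptors for 25 of 29 and for ionotropic receptors for 16 of 17, and the odorant co-receptor was under it on all arrays. Of 9 genes tested, 0 rose and 0 fell in limma, with 1 higher and 0 lower at unadjusted p and a median log2 fold change of 0.15. The higher one was Phk-3, a soluble chemosensory protein, with 1779 and 1702 in the knockdown and 1209.7 and 1251 in controls (log2 fold change 0.50, adjusted p = 0.308). EbpIII, of the same protein family, had overlapping groups (899 and 738 against 1063 and 861, log2 fold change -0.23, adjusted p = 0.683).

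Of the marker lists, that of stage was the one with genes that passed. Of 5 tested genes of the prepupal and pupal cuticle stage, 2 rose, the cuticle genes Edg91 (log2 fold change 2.07, adjusted p = 0.0226 from limma) and Pcp (1.87, adjusted p = 0.0407). At unadjusted p 5 of 5 were higher, against 7.53% of all tested probe sets. Among the 5, ftz-f1 entered the test through the Dop1R2 RNAi pair alone, so its part in that count is no support. Its signals were 47.8 and 53.2 in the knockdown and 21.3 and 28.8 in controls. The study reported Edg91 and Pcp as raised on these same arrays, and the list was chosen with earlier results known. These genes are therefore no independent measure of stage. Edg78E, Edg84A and ftz-f1 did not pass (adjusted p = 0.067, 0.241 and 0.293). The signals of all 5 genes summed to 738 and 1354 in the knockdown and 330.4 and 256 in controls. When control replicate 1 was left out the adjusted p was 0.195 for Edg91 and 0.291 for Pcp, and when control replicate 2 was left out it was 0.141 and 0.186. With no filter it was 0.0532 and 0.074, and in the fit without a trend 0.0517 and 0.0888. Fat body markers, with 4 genes tested and sums of 20428 to 21468, had 0 genes that passed (0 also at unadjusted p). Of 7 salivary gland probe sets, 5 were under the detection level on all arrays. That list had 1 gene tested and 0 that passed (0 at unadjusted p). The neuron and sensory organ lists, with 2 and 3 genes tested, had 0 as well (0 at unadjusted p). Of 4 tested haemocyte genes 0 passed, and Pxn was lower at unadjusted p (log2 fold change -1.05, adjusted p = 0.0926 from limma). The other tested genes of this list were PPO2 (log2 fold change 0.56), NimC1 (0.34) and srp (-0.01). Another PPO2 probe set was too dim to be tested, with 4.15 and 7.42 in the knockdown and 7.21 and 17.5 in controls. The list sums were 421 and 422 in the knockdown and 554 and 652 in controls. Pxn alone gave 187 and 170 of the knockdown sums and 359 and 380 of the control sums. The male reproductive tract list had 1 gene tested and 0 that passed. Its sums were 863 and 1238 in the knockdown and 2605 and 1118.2 in controls. The tested gene, Mst84Dc, gave 829 and 1210 of the knockdown sums and 2570 and 1088 of the control sums. The part of these markers in the changes of Obp99d and Obp56a was not tested.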

How the data were processed

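The authors processed the arrays with MAS5, of unstated version, and deposited 1 linear intensity per probe set, whose 2% trimmed mean was 100.02 on every array. They kept genes called present or marginal and used a t-test, and those calls were not used here. Of 14010 probe sets, 44 controls of the array maker were left out. Of the rest, 12442 carry 1 gene name, 327 several and 1197 none, in the probe annotation. Signals were log2 transformed without a pseudocount, and 8749 probe sets that reached the 40th percentile of at least 2 of 4 arrays were tested. Groups were compared with limma 3.58.1 in R 4.3.3 (lmFit, eBayes with a trend, 2 residual and 4.95 prior degrees of freedom), adjusted over all tested probe sets by Benjamini-Hochberg. The script was tested on simulated data. Standard errors and 95% intervals are limma's. The number of arrays limits the precision. The arrays are labelled as biological replicates.

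RefSeq genes (Release 6) gave current names and gene order alone. Members given in full were those that passed, those whose groups did not overlap with a log2 fold change of at least 1 in size, the 5 brightest in controls, and the other genes of a cluster that holds one that passed. Of the other lists, genes that passed, up to 3 bright ones and the tested genes of the stage, haemocyte and male reproductive tract lists are named. Obp18a, Obp19b, Obp59a, Obp69a, Obp83cd, Obp83ef, lush, Pxn, the floor for Obp99d, the neighbours and the replicate difference of Obp73a were chosen after their values were seen. The members, classes and lists were chosen with earlier results of these data known. Alternatives were other filters, floors at the 20th and 40th percentiles (the latter added after seeing the data), 32 added, quantile normalization, median centring, no trend, a replicate block, each array left out and the methods' t-test. Tables and figures were made in Python 3.11.15 (pandas 2.3.3, numpy 2.4.6, matplotlib 3.10.9, scipy 1.17.1).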

Additional observations from a re-analysis of the deposited data

How the results depend on the processing

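The rise of Obp99d kept its direction in all settings and passed in each but the methods' t-test after Benjamini-Hochberg adjustment (adjusted p = 0.464), in which 0 probe sets rose and 0 fell on the whole array and 0 members rose or fell. With 32 added to each signal its log2 fold change was 3.92. The fall of Obp56a was less firm: with no filter, after quantile normalization and without a trend 0 members fell, and over the fits without 1 array 0 to 3 members fell and 1 to 2 rose. The methods' t-test at unadjusted p gave 2 members that rose and 1 gene of the chemosensory list, and 467 higher and 323 lower probe sets in all. With no filter 37 members were tested, and 75 probe sets rose and 3 fell. Without 1 array, 27 to 357 probe sets rose and 0 to 295 fell, and p then assumes that the lone array of a group varies like the others. Signs turned for Obp83cd (-0.03 with the floor at the 40th percentile, -0.27 without control replicate 2, and -0.27 to 1.09 over the fits without 1 array) and for Obp99a (0.09 without control replicate 2, 0.43 without Dop1R2 RNAi replicate 1, and -0.48 to 0.43 over those fits). The causes were not tested.

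Replicate numbers are shared between the groups, but the sources do not say that they mark a batch, and the correlation of the deviations of same-numbered arrays was 0.151. With replicate number as a block, Obp99d (adjusted p = 0.00201) and Obp56a (0.0202) passed and Obp56d did not (0.0539), and of the marker genes Pcp no longer passed (0.0508). With 11 members at the 20th and 7 at the 60th percentile in both controls, and 13 and 8 in both Dop1R2 RNAi arrays, these pair counts stayed within 1.5 times, while the count on all 4 arrays went from 7 to 11 at the 20th percentile and 6 at the 60th.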

Other observations

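A pair of probe sets of the family carry several gene names and entered no comparison of the members. The one for Obp50b and Obp50c had signals of 6.25 and 11.03 in the knockdown and 12.7 and 0.588 in controls, all under the detection level. The one for Obp57d and the cuticle gene Cpr57A had 201 and 247 in the knockdown and 204 and 212 in controls (difference 0.10 ± 0.23 on the log2 scale, limma estimate ± standard error, adjusted p = 0.888), and which of the genes gave that signal cannot be told apart.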
